A study of Mus musculus with 30 samples.

Results

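The data described here ask whether the hippocampus and the frontal cortex of the same mouse moved differently between 6 h and 24 h after an injection of lipopolysaccharide (LPS), a bacterial cell wall molecule that innate immune cells detect through a Toll-like receptor. The comparison took the change from 6 h to 24 h in hippocampus and subtracted the change in frontal cortex, gene by gene. It used 16 of the 30 libraries in the series, which are both tissues of 4 mice killed at 6 h (A240, A241, A242 and A243) and of 4 other mice killed at 24 h (A274, A275, A276 and A278). All were adult male wild type C57BL/6J mice, 8 to 12 weeks old on arrival. All of them, at both times, had drunk water with corticosterone (CORT) at 200 mg/L, carried in ethanol at 0.6%, for 7 days. They were injected on day 8 with diisopropyl fluorophosphate (DFP, 4 mg/kg, an inhibitor of acetylcholinesterase), had further 7-day courses of CORT in alternate weeks over 5 weeks in all, and then received LPS at 0.5 mg/kg under the skin. The labels call this a model of Gulf War Illness. Because every mouse carried the CORT and DFP exposure and every mouse compared here received LPS, the comparison says nothing of LPS against saline. Each mouse was seen at 1 time only, so the change over time is between animals, while the tissue difference is within an animal.

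In the brain, systemic LPS is sensed first by vessel walls, perivascular cells and microglia, the resident macrophages. Cytokine and chemokine genes peak within hours, interferon-responsive genes follow, and glial programs and protein-folding capacity readjust as the response wanes. Hippocampus and cortex share most cell types but differ in their neurons, and bulk tissue mixes them all, so fewer cells of a type and less RNA per cell cannot be told apart.

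The 16 libraries held 18479503 to 26366879 counts. The tissue labels matched the neuronal markers. The summed level of 12 hippocampal pyramidal cell markers was 1024 to 1113 CPM (counts scaled to a common library size) in hippocampus and 371 to 434 CPM in cortex, and that of 12 cortical layer markers was 388 to 458 CPM in hippocampus and 711 to 850 CPM in cortex. Striatal projection neuron markers summed to 424 to 883 CPM in the cortical libraries and 284 to 332 CPM in the hippocampal ones, so the cortical pieces also held transcripts typical of striatum. Choroid plexus markers were uneven, and Ttr, the transthyretin gene of choroid plexus, ranged from 4.83 to 443 CPM in the 4 cortical libraries at 24 h.

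Genes called in 1 tissue between 6 h and 24 h mostly changed in the same direction in the other, and few genes passed the test for a regional difference. A gene is called here when its Benjamini-Hochberg adjusted p over all genes tested, from edgeR's quasi-likelihood test, is under 0.05. Of 17060 genes tested, 9 were called for a difference in change (0.0528%), 8 with a change higher in hippocampus (0.0469%) and 1 lower (0.00586%). At an unadjusted p under 0.05, 936 genes (5.49%) were higher and 952 (5.58%) lower. The p is 2-sided, so both directions count together: 1888 of 17060 genes, above the 0.05 share expected if no gene differed. In hippocampus alone 1077 genes were called between 6 h and 24 h (6.31%), and in cortex alone 885 (5.19%). Of these, 372 were called in both tissues with the same direction, which is 34.5% of the hippocampal and 42.0% of the cortical calls, and 8 were called in both with opposite directions. These 8 were mt-Atp8 and 7 pseudogenes. Of the 1077 genes called in hippocampus, 956 had the same sign in cortex, and of the 885 called in cortex, 749 had the same sign in hippocampus. The same-sign share over all genes was not computed. Of the 1582 genes called in either tissue, 578 (36.5%) had an unadjusted p under 0.05 for the regional difference (edgeR). Those genes were picked on the same libraries. Against this, the static difference between the tissues was wide, with 8750 genes called at 6 h (51.3%) and 7698 at 24 h (45.1%). The median gene differed in change by -0.01 on the log2 scale, with a median 95% half-width of 0.267. That half-width holds for 1 gene without adjustment, and a call after adjustment needed a larger difference. Pdia6, for example, differed by -0.52 and was not called (adjusted p = 0.0925, edgeR). With 4 mice per time, the small number of calls therefore does not show that the tissues changed alike.

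**Figure D1:**
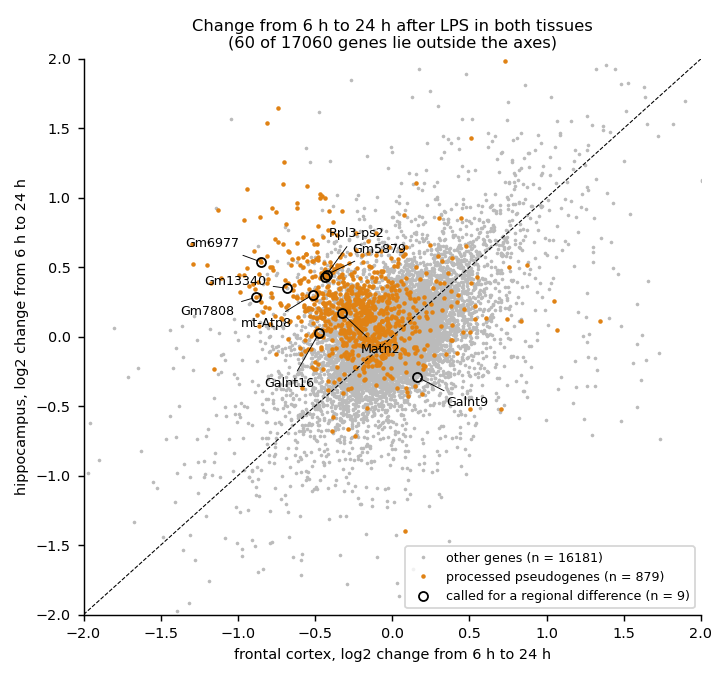
Each point is a gene, with its log2 change from 6 h to 24 h after LPS in frontal cortex on the x axis and in hippocampus on the y axis (4 mice per tissue and time). The dashed line marks equal change, processed pseudogenes are orange, the 9 called genes are circled, and 60 of 17060 genes lie beyond the axes. The orange cloud sits to the upper left of the line. The test of the regional difference came from another fit, with the mouse as a block. In it 83.4% of 879 processed pseudogenes had a value above 0, against 46.5% of all genes.

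Of the 9 called genes, 3 were nuclear protein-coding genes, and their regional difference grew or shrank by a modest amount. Matn2 (ENSMUSG00000022324.14, chr15:34306677-34436273, GRCm38, plus strand) encodes matrilin 2, a protein of the extracellular matrix. Its level in hippocampus was 69.1, 68.4, 66.0 and 65.2 CPM at 6 h and 74.9, 72.1, 83.3 and 69.6 CPM at 24 h, in the order of the mice given above. In cortex it was 36.8, 35.1, 33.3 and 33.7 CPM at 6 h and 26.8, 28.7, 28.3 and 26.3 CPM at 24 h. Every hippocampal value at 24 h lay above every one at 6 h and every cortical value at 24 h below every one at 6 h, so the tissues moved apart. The within-mouse log2 difference, hippocampus minus cortex, was 0.91 to 0.98 at 6 h and 1.33 to 1.56 at 24 h. The change differed by 0.49 ± 0.08 (SE, log2, adjusted p = 0.0356, edgeR). The fall in cortex was itself called (log2 -0.32, adjusted p = 0.00433), and the hippocampal value of 0.17 was not (adjusted p = 0.0969).

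Galnt16 (ENSMUSG00000021130.7, chr12:80518277-80630972, plus strand) and Galnt9 (ENSMUSG00000033316.14, chr5:110544355-110621380, plus strand) belong to the same family of enzymes, which attach N-acetylgalactosamine to serine or threonine and so start mucin-type O-glycosylation. They differed in opposite directions. Galnt16 stood at 250 to 277 CPM in hippocampus at 6 h and 246 to 306 CPM at 24 h, whereas in cortex it stood at 186 to 217 CPM at 6 h and 130 to 159 CPM at 24 h. The cortical groups did not overlap and the hippocampal groups did. Its regional difference in change was 0.50 ± 0.08 (SE, log2, adjusted p = 0.0459, edgeR), with a called fall in cortex (log2 -0.47, adjusted p = 0.000783). Galnt9 went from 155 to 175 CPM in hippocampus at 6 h to 110 to 148 CPM at 24 h, with no overlap. In cortex it ranged from 92.0 to 108 CPM at 6 h and from 97.7 to 132 CPM at 24 h, with overlap. The difference in change was -0.45 ± 0.08 (SE, log2, adjusted p = 0.0459, edgeR), and neither tissue alone was called (adjusted p = 0.0613 in hippocampus and 0.332 in cortex).

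The other 6 called genes were mt-Atp8, which encodes a subunit of the mitochondrial ATP synthase and lies in the mitochondrial genome (ENSMUSG00000064356.3, bases 7766 to 7969), and 5 pseudogenes. Of the pseudogenes, 4 are annotated as processed, that is, copies of messenger RNAs inserted in the genome: Gm6977 (ENSMUSG00000084289.1, chrX:90744546-90745062), Gm7808 (ENSMUSG00000091460.2, chr9:19927896-19928282), Rpl3-ps2 (ENSMUSG00000084131.1, chrX:74170653-74171866), named for the ribosomal protein gene Rpl3, and Gm5879 (ENSMUSG00000068262.4, chr6:87764996-87766204). Gm13340 (ENSMUSG00000083563.1, chr2:22588103-22589647) is annotated as an unprocessed pseudogene. The predicted genes among them (Gm numbers) fall outside the rule by which genes were chosen for naming and were named after their values were seen. Reads of a pseudogene can also match its parent gene, and the counting rule is not given in the sources used here, so these values are uncertain as measures of the pseudogenes themselves.

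All 6 turned from lower in hippocampus at 6 h to higher at 24 h. Gm6977 had the largest difference among the 9 called genes: its level was 2.86 to 3.74 CPM in hippocampus at 6 h and 4.41 to 5.11 CPM at 24 h, and 5.29 to 7.84 CPM in cortex at 6 h and 2.50 to 4.36 CPM at 24 h. The groups overlapped in neither tissue, and the change differed by 1.38 ± 0.20 (SE, log2, adjusted p = 0.0356, edgeR). mt-Atp8, a far more abundant transcript, was at 255, 323, 274.1 and 311 CPM in hippocampus at 6 h and 348, 331, 393 and 354 CPM at 24 h. Cortical levels were 485, 390, 361 and 375 CPM at 6 h and 283, 253, 282 and 302 CPM at 24 h. Here too the times did not overlap in either tissue, with a difference of 0.81 ± 0.12 (SE, log2, adjusted p = 0.0356, edgeR). The log2 differences in change of Gm7808, Gm13340, Rpl3-ps2 and Gm5879 were 1.16, 1.02, 0.86 and 0.86. At 12 h after LPS there were 4 further mice, which did not enter the test. Their mean within-mouse difference lay between the 6 h and the 24 h means for 8 of the 9 called genes. For mt-Atp8 it lay beyond the 24 h mean. The called genes were picked for means far apart at 6 h and 24 h. A 12 h mean between them is therefore likely in any case. The placement over all genes was not computed, and no support is drawn from it.

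**Figure D2:**
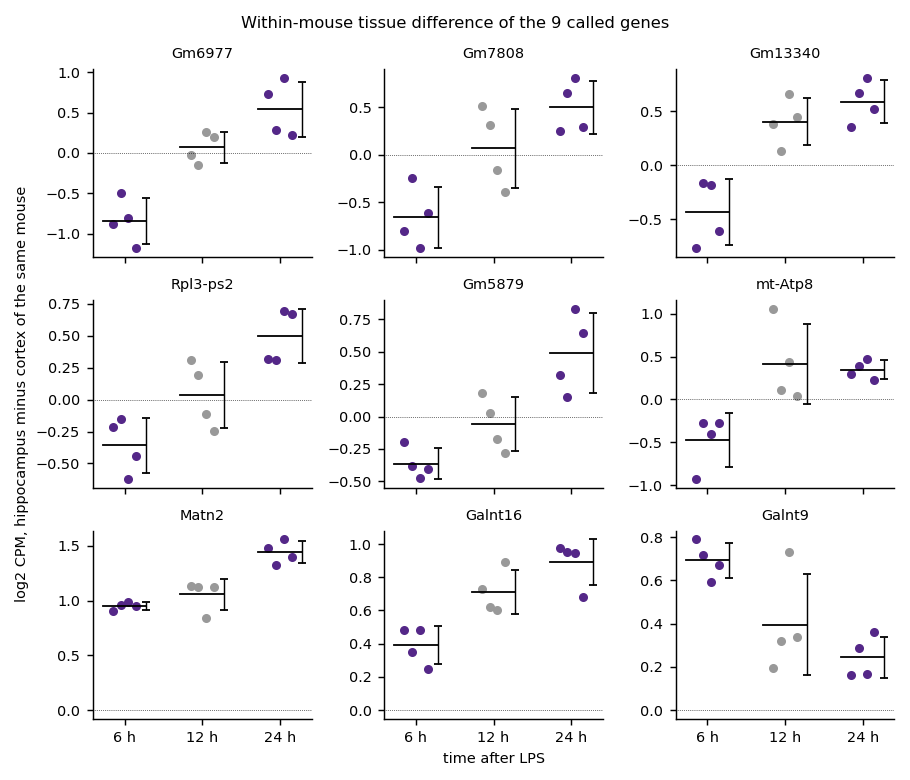
For each of the 9 called genes, points are the log2 CPM of hippocampus minus that of frontal cortex in 1 mouse (4 mice per time), bars are means and error bars 1 SD. Purple points at 6 h and 24 h entered the test and grey points at 12 h did not. At 24 h all 4 mice lay beyond all 4 mice at 6 h for each gene, above it for 8 genes and below it for Galnt9. Over all genes, 2.85% lay above in this way and 3.41% below. The 9 genes were called on these same values, so the separation is no further support.

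Some transcript classes had, like these 6 genes, a median regional difference in change above 0. The classes were drawn up after the values were seen and are given as a description. The median difference in change was 0.36 (log2) over 879 processed pseudogenes and 0.38 over 13 mitochondrially encoded protein-coding genes, against -0.01 over all genes. It was 0.18 over 96 ribosomal protein genes, of which 91 lay above 0. The median changes in hippocampus and cortex were 0.18 and -0.21 for processed pseudogenes. They were 0.04 and -0.35 for mitochondrially encoded genes and 0.04 and -0.16 for ribosomal protein genes. Of the called genes, 4 are themselves among the 879 processed pseudogenes and 1 is among the 13 mitochondrially encoded genes. Of the mitochondrially encoded genes all 13 lay above 0 and 11 had an unadjusted p under 0.05 on the higher side (5.49% of all genes). Among them mt-Nd1 and mt-Co1, subunits of respiratory complexes I and IV, differed by 0.40 and 0.38 (log2), and neither was called. As a share of library counts, mitochondrially encoded protein-coding genes made up 9.36% in the cortex of mouse A240 and 6.84% to 7.45% in the other 3 cortical libraries at 6 h. At 24 h the cortical share was 5.42% to 6.54%. In hippocampus it was 6.24% to 6.92% at 6 h and 6.51% to 7.41% at 24 h. The ribosomal protein share was highest in the cortex of mice A242 (2.04%) and A240 (1.89%) at 6 h, the other 14 libraries lying between 1.32% and 1.67%. The part of these shares in the 9 calls was not tested. A fit of the nuclear protein-coding genes alone, added after the values were seen, leaves out the other 6 called genes by construction. In it Matn2, Galnt16 and Galnt9 had log2 values of 0.51, 0.52 and -0.43, near those of the main test, with adjusted p of 0.0944, 0.1 and 0.122 by edgeR, so that 0 of 14540 genes were called, and 1316 had an unadjusted p under 0.05.

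**Figure D3:**
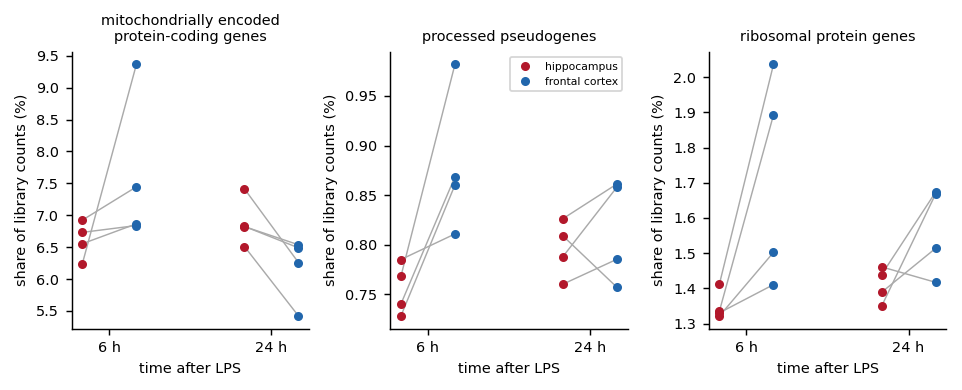
Share of each library's counts (y axes, %, not starting at 0) from mitochondrially encoded protein-coding genes, processed pseudogenes and ribosomal protein genes at 6 h and 24 h after LPS. Red points are hippocampus, blue points frontal cortex, and grey lines join the tissues of 1 mouse. The cortex of mouse A240 holds the highest mitochondrial share (9.36%) and that of A242 the highest ribosomal protein share (2.04%).

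The number of calls rested on single mice. Leaving out 1 mouse at a time gave 2 calls without A240, 132 without A241, 0 without A242, A243, A276 or A278, 1 without A274 and 4 without A275. Without A242, A243, A276 and A278 in turn, 1369, 1883, 1276 and 1558 genes had an unadjusted p under 0.05, against 1888 of 17060 in the main test. Without the mouse block the count was 50, of which 8 were among the 9. The sizes moved less than the calls: leaving out 1 mouse, the log2 value was 0.45 to 0.53 for Matn2, 0.45 to 0.57 for Galnt16, -0.48 to -0.41 for Galnt9, 0.66 to 0.88 for mt-Atp8 and 1.05 to 1.31 for Gm7808.

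A group of 9 genes fell just outside the threshold with an adjusted p of 0.0506, of which 5 are nuclear protein-coding genes. They are named here because their values were seen, other than Aldh1l1 and H2-T23, which the naming rule gave. Cckbr, a receptor for the neuropeptide cholecystokinin, was at 10.2 to 13.8 CPM in hippocampus at 6 h and 4.82 to 7.96 CPM at 24 h, with no overlap, and this fall was called (log2 -0.79, adjusted p = 0.000863, edgeR). In cortex it was 58.8 to 71.8 CPM and then 51.9 to 60.8 CPM, and the regional difference in change was -0.65 ± 0.12 (SE, log2). Aldh1l1, a folate enzyme used as a marker of astrocytes, was at 52.0 to 56.1 CPM in hippocampus at 6 h and 30.3 to 34.6 CPM at 24 h, a called fall (log2 -0.72, adjusted p = 4.84e-05, edgeR). Its cortical levels overlapped, at 66.6 to 74.4 CPM and 48.9 to 73.6 CPM, and its regional difference in change was -0.52. Other astrocyte genes did not all fall, as given further on. Tubb3, the neuronal beta-tubulin, had a regional difference of -0.39, and Prss23, a serine protease, one of 0.77. H2-T23, a non-classical MHC class I gene, was at 10.2 to 11.7 CPM in hippocampus at 6 h with overlapping values at 24 h, and went from 39.4 to 55.6 CPM to 25.1 to 34.8 CPM in cortex, where the fall was called (log2 -0.62, adjusted p = 0.0033, edgeR).

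Chaperones of the endoplasmic reticulum (ER) and of the heat shock response had lower values of the change in hippocampus than in cortex throughout the list, without any single member being called for the difference. These proteins fold or hold other proteins. The ER set is known to be induced by the unfolded protein response through the ER stress response element (ERSE), and the interferon-inducible GTPases described further on through the interferon-stimulated response element (ISRE). Promoter windows that hold these letters are shown because their genes carry much of what follows. They run from 250 bases before to 50 bases after the annotated start (RefSeq, GRCm38.p6), with the fixed letters of the motif in capitals. The first is Hspa5 (chr2:34771840-34772139, plus strand), then Pdia6 (chr12:17266339-17266638, plus strand), Hsp90b1 (chr10:86705395-86705694, minus strand, which has the motif once on each strand) and Gbp2 (chr3:142620413-142620712, plus strand, with the core of the ISRE).
Hspa5: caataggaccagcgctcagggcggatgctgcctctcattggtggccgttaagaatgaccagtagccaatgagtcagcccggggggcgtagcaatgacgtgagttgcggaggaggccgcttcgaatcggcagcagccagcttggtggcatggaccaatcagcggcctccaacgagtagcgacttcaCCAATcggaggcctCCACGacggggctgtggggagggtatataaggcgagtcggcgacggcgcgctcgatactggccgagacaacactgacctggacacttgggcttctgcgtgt
Pdia6: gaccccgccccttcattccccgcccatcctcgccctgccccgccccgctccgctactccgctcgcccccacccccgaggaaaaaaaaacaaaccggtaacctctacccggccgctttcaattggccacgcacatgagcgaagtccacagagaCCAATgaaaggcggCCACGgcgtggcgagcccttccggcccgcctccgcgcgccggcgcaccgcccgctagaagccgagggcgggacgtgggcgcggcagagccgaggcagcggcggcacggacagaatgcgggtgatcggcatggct
Hsp90b1: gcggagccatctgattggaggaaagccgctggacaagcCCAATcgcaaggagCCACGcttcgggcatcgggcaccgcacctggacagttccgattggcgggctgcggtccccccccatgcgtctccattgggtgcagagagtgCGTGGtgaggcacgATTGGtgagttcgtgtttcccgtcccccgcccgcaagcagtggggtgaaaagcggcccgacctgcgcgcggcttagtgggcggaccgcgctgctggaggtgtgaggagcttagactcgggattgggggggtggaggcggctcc
Gbp2: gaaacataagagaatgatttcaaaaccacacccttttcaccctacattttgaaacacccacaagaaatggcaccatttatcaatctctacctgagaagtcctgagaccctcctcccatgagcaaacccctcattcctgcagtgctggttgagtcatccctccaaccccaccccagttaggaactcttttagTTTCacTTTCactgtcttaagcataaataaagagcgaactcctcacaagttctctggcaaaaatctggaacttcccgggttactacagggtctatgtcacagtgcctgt

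The ERSE was searched on both strands as CCAAT and CCACG with 9 free bases between them. It was found for 5 of the 14 tested chaperone genes with a window (35.7%: Calr, Creld2, Hsp90b1, Hspa5 and Pdia6). The same letters were found for 20 of the 11978 tested genes with a window (0.167%) and for 37 of all 27025 genes with a window, tested or not (0.137%). With the last base left free, a search that contains the first, Pdia4 was added. This made 6 of 14 against 0.442% of tested genes and 0.429% of all genes. The heat shock element was searched as GAA, TTC and GAA with 2 free bases between neighbours. It was found for 1 of the 14 (Hsph1), 0.568% of tested genes and 0.662% of all genes. A match is a description of these letters and not of binding.

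Over the 18 chaperone genes tested, all 18 values of the regional difference in change lay below 0, with a median of -0.36 (log2) against -0.01 over all genes. An unadjusted p under 0.05 with a negative value was found for 14 of the 18, and for 5.58% of all genes. In 11 of the 18 every mouse at 24 h had a lower hippocampus minus cortex difference than every mouse at 6 h, against 3.41% of all genes, and 2.85% had the opposite order. No member was called in the regional difference (0 of 18, smallest adjusted p = 0.0925 for Pdia6, edgeR). DESeq2 called 3 of them, and edgeR without a filter on low counts called 12. Leaving out 1 mouse at a time, the median lay between -0.42 and -0.27. Within tissues, 11 of 18 were called lower at 24 h in hippocampus (3.06% of all genes) and 0 of 18 in cortex (2.56%). The hippocampal count was 3 without mouse A241, 5 without A242 and 6 without A276.

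Hspa5, which encodes the main ER chaperone BiP, was at 308, 373, 381 and 345 CPM in hippocampus at 6 h and 257, 281, 180 and 249 CPM at 24 h, with no overlap. The cortical values were 282, 300, 367 and 317 CPM at 6 h and 253, 298, 291 and 381 CPM at 24 h, and the groups overlapped. The fall in hippocampus was called (log2 -0.53, adjusted p = 0.0268, edgeR), and the regional difference of -0.50 ± 0.14 (SE, log2) was not (adjusted p = 0.199). Calr, the calcium-binding chaperone calreticulin, was at 394 to 445 CPM and then 224.5 to 320 CPM in hippocampus and 326 to 394 CPM and then 302 to 452 CPM in cortex. Pdia6 and Pdia4, which rearrange disulphide bonds, had regional differences of -0.52 and -0.56, Dnajb11, a partner of BiP, one of -0.36, and Hspa1b, the inducible cytosolic Hsp70, one of -0.42. Of these genes Calr, Hspa5 and Hsp90b1 were named after their values were seen.

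The 24 h mice were not alike in these genes. For Calr the within-mouse log2 difference was 0.01 and -0.07 in mice A274 and A275 and -0.76 and -0.63 in A276 and A278, and for Hspa5 it was 0.02, -0.08, -0.69 and -0.61 in the same order. At 6 h all 4 mice lay between 0.18 and 0.29 for Calr and between 0.06 and 0.31 for Hspa5. What set A276 and A278 apart was not tested.

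**Figure D4:**
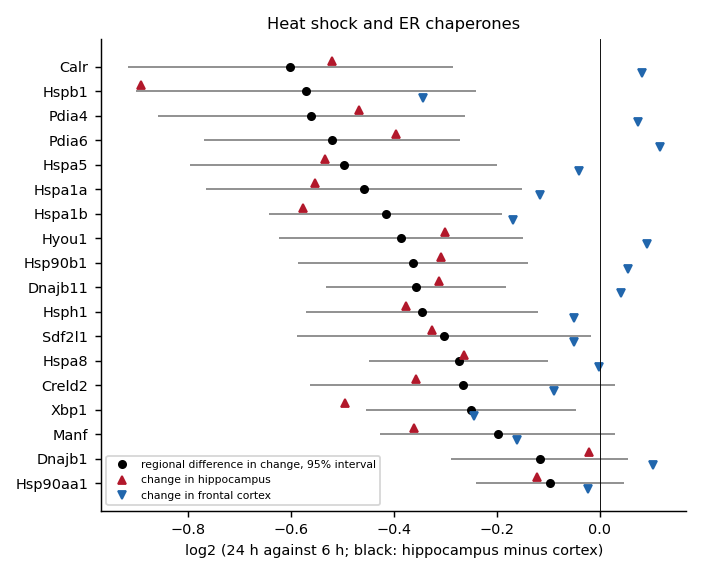
Heat shock and ER chaperone genes (y axis, 18 genes) with their log2 values on the x axis. Black points are the regional difference in change with its 95% interval, red triangles the change from 6 h to 24 h in hippocampus and blue triangles that in frontal cortex (4 mice per tissue and time). All 18 black points lie below 0, and none was called.

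Genes of sterol synthesis and uptake had a similar, smaller pattern. Of 16 tested, 13 lay below 0 in the regional difference, the median was -0.22, 8 had an unadjusted p under 0.05 on the lower side (5.58% of all genes), and in 8 all mice at 24 h lay below all at 6 h (3.41%). None was called in the main edgeR test (smallest adjusted p = 0.138), while DESeq2 called 1 and edgeR without a filter on low counts called 2. In hippocampus 8 were called lower at 24 h (3.06% of all genes) and 1 higher (3.25%), and in cortex 2 were called lower (2.56%). Hmgcs1, an early enzyme of the pathway, was at 194 to 215 CPM in hippocampus at 6 h and 153 to 180 CPM at 24 h, a called fall (log2 -0.23, adjusted p = 0.0219, edgeR). Its cortical levels of 184 to 207 CPM and 192 to 202 CPM overlapped. Its regional difference in change was -0.26, and that of Srebf2, the transcription factor that drives the pathway, was -0.32. The letters CACCCCAC, the core of a sterol regulatory element, were found in the promoter window of Hmgcs1 only among 9 genes with a window (11.1%). The share was 3.84% of tested genes and 3.3% of all genes.

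Interferon-inducible GTPases, which act against intracellular pathogens and are strong targets of interferon gamma, had the lowest median of the 41 lists, -0.71 over 14 genes with 12 below 0. The list had 7 members with an unadjusted p under 0.05 and a negative value (5.58% of all genes), and 0 without the mouse block or with the mouse as a random effect. None was called in the main edgeR test (smallest adjusted p = 0.19) or by DESeq2, and edgeR without a filter on low counts called 8. Gbp2, a guanylate-binding protein, was at 8.61, 10.3, 9.13 and 10.2 CPM in hippocampus at 6 h and 5.87, 4.12, 7.52 and 8.10 CPM at 24 h. Levels in cortex were 9.48, 15.5, 12.9 and 13.8 CPM at 6 h and 9.07, 7.22, 19.9 and 32.6 CPM at 24 h. The high cortical values at 24 h were those of mice A276 and A278 alone. Gbp4 in the same 4 cortical libraries at 24 h was at 3.64, 2.88, 16.7 and 20.7 CPM, and Gbp5 at 6.52, 5.56, 15.3 and 21.3 CPM. Gbp3 did not share this, at 11.9, 11.9, 9.39 and 14.3 CPM, and was called higher at 24 h in both tissues (log2 0.70, adjusted p = 0.0111 in hippocampus, and 0.54, adjusted p = 0.0442 in cortex, edgeR). Gbp3 was named after its values were seen. The ISRE core was searched on both strands as TTTC, 2 free bases and TTTC. It was found for 9 of 10 of these GTPase genes with a window, 3.72% of tested genes and 3.99% of all genes. The gamma-activated site, TTCNNNGAA, was found for 6 of 10, 8.13% of tested genes and 9.55% of all genes. The broader list of interferon-stimulated genes showed no such shift, with a median of 0.02 over 28 genes and 15 above 0. In that list 14 genes were called higher at 24 h in hippocampus (3.25% of all genes) and 5 in cortex (2.63%).

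Of the cytokine and chemokine genes 11 were tested, 8 of them below 0, with a median of -0.23 and 0 called (3 at an unadjusted p under 0.05 on the lower side, edgeR, against 5.58% of all genes). Il1b, the gene of interleukin 1 beta, was at 1.93, 6.46, 2.75 and 4.90 CPM in hippocampus at 6 h and 0.197, 0.711, 0.498 and 0.506 CPM at 24 h. In cortex it was at 2.58, 8.68, 5.31 and 7.28 CPM at 6 h and 0.662, 1.46, 1.92 and 2.43 CPM at 24 h. It fell in both tissues (log2 -3.03, adjusted p = 0.00824 in hippocampus, and -1.86, adjusted p = 0.0326 in cortex, edgeR). The hippocampus minus cortex difference was lower in all 4 mice at 24 h than in all 4 at 6 h, and the regional difference in change was -1.16 ± 0.28 (SE, log2, adjusted p = 0.106). Tnf, the gene of tumour necrosis factor, averaged -0.80 log2 CPM, so its values rest on few counts. It was called lower in hippocampus (log2 -3.02, adjusted p = 0.00595, edgeR). Its regional difference of -1.72 was not called (adjusted p = 0.387, edgeR). In cortex at 24 h Tnf was at 0.0945 and 0.0976 CPM in A274 and A275 and at 0.447 and 0.826 CPM in A276 and A278. Lcn2, an iron-binding acute phase protein of astrocytes and vessels, fell in both tissues, with a regional difference of -0.57 (adjusted p = 0.221). Lrg1, another acute phase gene, differed the other way by 0.74 (adjusted p = 0.067), with a called rise in hippocampus (log2 0.68, adjusted p = 0.00225). Cxcl10 and Ccl2, chemokines for T cells and monocytes, had differences of 0.33 and -0.23 with 95% intervals of -0.40 to 1.07 and -1.39 to 0.93. Cxcl10 was called higher at 24 h in hippocampus (log2 1.55, adjusted p = 0.0183, edgeR), and its cortical value of 1.16 was not called. Of the 11 cytokine and chemokine genes, 3 were called lower in hippocampus (3.06% of all genes) and 1 higher (3.25%). In cortex 2 were called lower (2.56%) and 1 higher (2.63%).

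Genes of cell division had higher values of the change in hippocampus, at low counts. The median was 0.49 over 15 genes, 14 of them above 0, with 5 at an unadjusted p under 0.05 on the higher side (5.49% of all genes) and 1 on the lower (5.58%). None was called for the regional difference in the main edgeR test or by DESeq2. Mki67 or Top2a was called by edgeR with library totals alone (1) and without mouse A241 (1), and both were by edgeR without a filter on low counts and by limma-voom. In hippocampus 8 of 15 were called higher at 24 h (3.25% of all genes) and in cortex 4 of 15 (2.63%). Mki67, the proliferation antigen Ki-67, was at 0.695, 0.637, 0.363 and 0.761 CPM in hippocampus at 6 h and 3.501, 2.04, 1.08 and 2.39 CPM at 24 h, a called rise (log2 1.85, adjusted p = 0.00176, edgeR). The cortical values were 0.554 to 1.05 CPM and then 0.321 to 0.879 CPM. The hippocampal groups did not overlap and the cortical ones did, and the regional difference of 2.13 ± 0.45 (SE, log2) had an adjusted p of 0.0648. Top2a, a topoisomerase of dividing cells, had a difference of 2.43 (adjusted p = 0.0931). Which cells carried these transcripts was not measured.

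Homeostatic microglial genes were higher at 24 h than at 6 h in both tissues. Of 16, 15 were called higher at 24 h in hippocampus (3.25% of all genes) and 11 in cortex (2.63%), with a median regional difference of 0.23 and 0 called. P2ry12, the microglial ADP receptor, was at 4.46 to 8.92 CPM in hippocampus at 6 h and 25.6 to 30.0 CPM at 24 h. In cortex at 24 h it was at 30.0, 24.7, 12.4 and 9.50 CPM, again with A276 and A278 apart from A274 and A275, and at 4.39 to 9.27 CPM at 6 h. Its regional difference was 0.58 with a 95% interval of -0.40 to 1.56. Fcrls, another microglial gene, named after its values were seen, rose in both tissues (log2 2.28 in hippocampus and 2.26 in cortex), with a regional difference of 0.01 and an interval of -0.42 to 0.44. Fos, an immediate early gene of active neurons, was at 27.1, 38.9, 10.96 and 11.4 CPM in the 4 cortical libraries at 24 h, the same pair of mice lying apart, and its regional difference of 0.40 was not called.

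Among astrocyte genes, Gfap, the intermediate filament that marks reactive astrocytes, rose in hippocampus from 300 to 352 CPM to 438 to 612 CPM (log2 0.64, adjusted p = 0.00553, edgeR), while the cortical value of 0.35 was not called. The regional difference of 0.30 had an adjusted p of 0.348. Gfap went against most of its list: of 22 reactive astrocyte genes, 7 were called lower at 24 h in hippocampus (3.06% of all genes) and 2 higher (3.25%), with a median hippocampal change of -0.37, and the median regional difference was -0.13. That of 12 astrocyte homeostasis genes, Aldh1l1 among them, was -0.05. In hippocampus 5 of these 12 were called lower (3.06% of all genes) and 2 higher (3.25%). In cortex 4 were called lower (2.56%) and 3 higher (2.63%). Aqp4, another marker of astrocytes in that list, was named after its values were seen. It rose in hippocampus (log2 0.54, adjusted p = 6.41e-06, edgeR) and cortex (log2 0.34, adjusted p = 0.00122, edgeR). Its regional difference of 0.20 was not called. Pygm, the glycogen phosphorylase found in astrocytes and muscle and named after its values were seen, fell in hippocampus (log2 -0.88, adjusted p = 1.06e-05) with a regional difference of -0.60 (adjusted p = 0.0581).

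Fkbp5, which binds the glucocorticoid receptor complex and is itself induced by it, was at 85.1, 89.8, 78.1 and 73.8 CPM in hippocampus at 6 h and 79.3, 74.0, 77.2 and 70.6 CPM at 24 h. Levels in cortex were 48.1, 57.3, 39.3 and 44.5 CPM at 6 h and 34.5, 28.4, 34.3 and 33.1 CPM at 24 h. The cortical groups did not overlap and the cortical fall was called (log2 -0.52, adjusted p = 0.00302, edgeR), while the hippocampal groups overlapped. The regional difference of 0.41 ± 0.09 (SE, log2) had an adjusted p of 0.0895. Over the 24 glucocorticoid-responsive genes the median was 0.05, with 18 above 0. Per1, a clock gene that glucocorticoids also induce, had a difference of -0.25, and Npas2, a clock transcription factor, one of -0.46 (adjusted p = 0.125). The hour of day of collection is not given in the sources used here, and hour of day and time after LPS cannot be told apart.

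**Figure D5:**
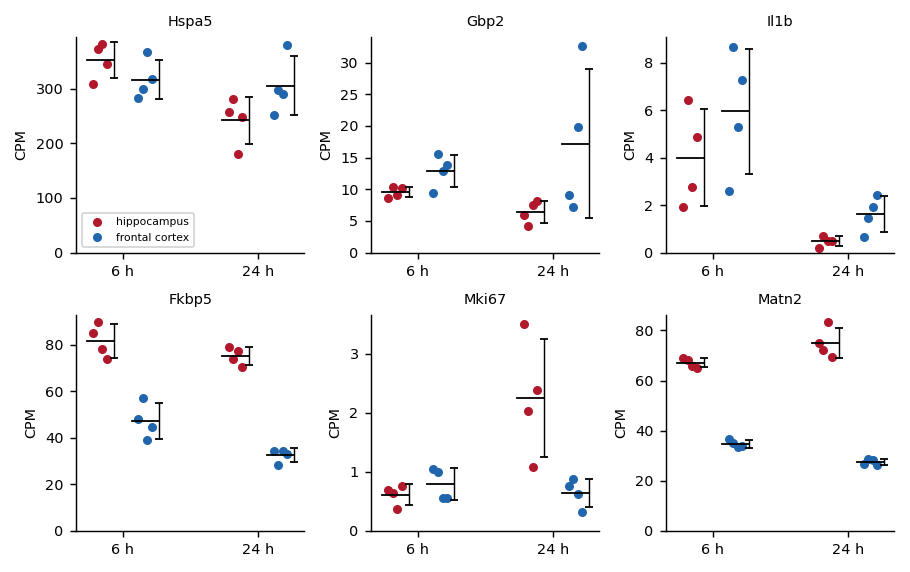
Level in CPM (y axes, from 0) of 6 genes at 6 h and 24 h after LPS in hippocampus (red) and frontal cortex (blue). Points are single mice (4 per group), bars are means and error bars 1 SD. Hspa5, Gbp2 and Mki67 separate by time in hippocampus alone, Fkbp5 in cortex alone, and Il1b and Matn2 in both tissues, Matn2 in opposite directions. The 2 highest Gbp2 values are the cortex of A276 and A278.

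In the remaining lists no gene was called for the regional difference. Glutamate and GABA receptor, synaptic, cholinergic and oxidative stress lists had medians between -0.10 and -0.02. In the synaptic list 13 of 19 genes lay below 0, 6 of 19 had an unadjusted p under 0.05 on the lower side (5.58% of all genes), and in 3 of 19 all mice at 24 h lay below all at 6 h (3.41%). The list of NF-kB feedback and of IL-1 and TNF signalling had a median of -0.14 over 22 genes, with 5 at an unadjusted p under 0.05 on the lower side and 2 on the higher (5.49%). In that list 10 genes were called lower at 24 h in hippocampus (3.06%) and 5 in cortex (2.56%). Myelin genes had a median of 0.11 with 13 of 16 above 0. Of these 16, 4 had an unadjusted p under 0.05 on the higher side (5.49% of all genes) and 0 on the lower. In hippocampus 4 of the 16 were called higher at 24 h (3.25%) and 0 lower (3.06%). In cortex 1 was called higher (2.63%) and 1 lower (2.56%). Oligodendrocyte precursor genes had a median of -0.09 with 9 of 12 below 0, and Bcas1 in that list, with 0.42 (adjusted p = 0.121), was the only member at an unadjusted p under 0.05. Cortical layer neuron markers went both ways, with 5 above and 7 below 0 and a median of -0.07, and the 2 with an unadjusted p under 0.05 were Lamp5 and Rprm, at -0.38 and -0.64 (adjusted p = 0.0925 and 0.117). Mfsd2a, a lipid transporter of the blood-brain barrier that fell in both tissues, had a value of 0.37. Cldn5, a tight junction gene of the endothelium, had 0.09 (95% interval -0.23 to 0.40). Markers of striatal neurons had a median of -0.36 with 12 of 12 below 0, and those of choroid plexus one of -0.63. Those of ependyma, the cells lining the ventricles, had 0.38 with 8 of 8 above 0. In these marker lists 0 genes were called for the regional difference. The summed ependymal level was 18.9 to 22.1 CPM in hippocampus at 6 h and 15.3 to 17.1 CPM at 24 h. In cortex it was 19.2 to 27.6 CPM and then 12.3 to 14.5 CPM, and the times overlapped in neither tissue. Of the 8 ependymal genes, 5 were called lower at 24 h in cortex (2.56% of all genes) and 0 in hippocampus (3.06%). The part of tissue sampling in the regional differences was not tested.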

How the data were processed

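PolyA RNA of hippocampus and frontal cortex was sequenced from stranded libraries as paired reads of 150 bases, per the labels' protocols. The submitters' processing notes name Trim Galore 0.4.1, FastQC, STAR 2.6.0a, DESeq2 and the GRCm38 (mm10) build; for the counting program, strand setting and gene annotation, a name was not given in the sources used here. The authors deposited raw counts per Ensembl gene for 48820 genes. Symbols were found for 98.4% of the identifiers, and the counts of those without one made up at most 0.29% of a library. Coordinates and gene types are those of GENCODE for GRCm38.

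Samples were grouped by their titles, and tissues were paired by the mouse code, which names the same animal in both. Samples with the same code deviated together only weakly (correlation of deviations from group means -0.013 to 0.35, median 0.11, over 0.1 in 4 of 8 mice). The main test was edgeR 4.0.16 (R 4.3.3) on the 16 libraries, with low genes removed by filterByExpr (minimum count 10, minimum total 15), TMM factors, robust quasi-likelihood fits, the mouse as a block and 6 residual degrees of freedom. Changes within a tissue were tested in a fit of group means, since a mouse is nested in its time. CPM values use TMM factors over all 30 libraries, and log2 CPM a prior count of 1. Intervals are at 95%. Alternatives were DESeq2 1.42.0, limma 3.58.1 with voom, other scalings, filters and blocks, and leaving out each mouse; 2 were added after the values were seen. No pair of libraries was a duplicate. Scripts for the test were run on simulated data. False calls did not stay under a share of 0.05 in every simulated set, and the reason was not examined.

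The genes, gene lists (41, with 627 members) and alternatives were chosen with earlier results of these data known. Genes were named by this rule: genes called for the regional difference, averaging 1 log2 CPM or more, whose 4 mice at 24 h all lay beyond the 4 at 6 h, up to 15 in each direction, leaving out Gm and Rik names; 4 or fewer members from any list, the called before the uncalled and the latter in order of p; and always Lcn2, Il1b, Ccl2, Cxcl10, Gfap, P2ry12, Fkbp5, Per1, Fos, Ttr and Cldn5. Genes named outside it are marked where they appear.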

Additional observations from a re-analysis of the deposited data

Results flagged for a closer look

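The change from 6 h to 24 h differed between the tissues, by the test of the difference itself, for 9 genes. The log2 values, hippocampus minus cortex, were 1.38 for Gm6977, 1.16 for Gm7808, 1.02 for Gm13340, 0.86 for Rpl3-ps2, 0.86 for Gm5879, 0.81 for mt-Atp8, 0.50 for Galnt16, 0.49 for Matn2 and -0.45 for Galnt9. Pseudogenes and mt-Atp8 made up 6 of them.

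Of 128 groups of 4 looked at, 7 held a value far from the other 3, and chance flags about 1 in 20 such groups. In the within-mouse log2 difference at 24 h, these were Bcas1 in mouse A275 (-0.90, the others -0.60 to -0.57), Galnt16 in A278 (0.68, the others 0.95 to 0.98), Hmgcs1 in A276 (-0.40, the others -0.17 to -0.12) and Mcm5, a replication licensing factor, in A278 (0.49, the others -0.17 to -0.08). At 6 h they were Mki67 in A243 (0.42, the others -0.62 to -0.55) and mt-Nd1 in A240 (-0.80, the others -0.24 to -0.16). The ribosomal protein share of the hippocampus of A242 at 6 h was 1.41%, the others 1.32% to 1.34%.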

How the results depend on the processing

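Of the count of genes called for a regional difference, 18 of 20 alternative values differed from the main 9 by more than 1.5 times. It was 36 with library totals alone, 448 without a filter on low counts, 61 with DESeq2, 62 with limma-voom and quality weights, 50 without the mouse block, 65 with the mouse as a random effect, 20 with all 24 LPS libraries, 22 with all 30 libraries and no block, 1 without mice A240 and A242 and 0 with nuclear protein-coding genes alone, and it ranged from 0 to 132 leaving out 1 mouse. Of 173 alternative values of the 9 called genes, 0 changed sign and 96 were called, 16 of them among the 72 that left out 1 mouse. The hippocampal count of 1077 became 2448 with limma-voom, 1974 with the tissue fitted alone and 464 without A240 and A242, and ranged from 626 (without A243) to 836 (without A274) leaving out 1 mouse. The cortical count of 885 became 576, 309 and 299 in the same settings and ranged from 401 (without A240) to 1388 (without A241). The count of tissue differences at 6 h became 5179 without A240 and A242. The mouse block cannot be fitted for a change within a tissue. The cause of these shifts was not tested.

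Some uncalled values changed sign. Ccl2 ranged from -1.10 to 0.62 (without A278) leaving out 1 mouse. Fcrls ranged from -0.14 to 0.15 leaving out 1 mouse, below 0 without A240 (-0.028), A242 (-0.097), A276 (-0.030) or A278, and was -0.014 with library totals, -0.0065 with DESeq2, -0.015 with a random mouse effect and -0.25 without A240 and A242. Cldn5 ranged from -0.011 (without A278) to 0.22 and was -0.021 without A240 and A242. Ttr ranged from -1.49 to 1.05 leaving out 1 mouse, above 0 without A240 (0.93), A275 or A278 (0.23), and was 0.16 with DESeq2 and 1.21 without A240 and A242.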
